A study of Mus musculus with 8 samples.

Results

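Cell cycle and DNA replication genes were examined in mouse lens capsules after capsule injury. They are 37 genes taken by symbol from the gene count table: 19 genes of mitosis, 9 of DNA replication, 7 cyclins and kinases of the G1 phase and 2 inhibitors of cyclin-dependent kinases. All 37 were found among the 54532 genes of the table, and all 37 passed the filter on low counts that left 15857 genes for testing. RNA was measured in 4 ASC and 4 sham libraries from wild-type C57BL/6 mice aged 6 to 8 weeks, 7 days after surgery. ASC eyes, the injury-induced model of fibrotic cataract, had the centre of the anterior lens capsule pierced by a needle passed through the cornea. Sham eyes had a corneal incision with the lens capsule left closed. The number of capsules or mice behind each library is not stated in the labels.

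The lens capsule is the basement membrane of the lens and carries its epithelium, a single sheet of cells on the anterior side. In the adult lens most of these cells rest, and dividing cells lie mainly in a germinative band near the equator. Cells that leave this band stop dividing, switch on the inhibitor p57 (Cdkn1c) and mature into fibre cells rich in crystallins. A cell enters a division when D-type cyclins with Cdk4 or Cdk6, then cyclin E with Cdk2, inactivate the retinoblastoma proteins and free E2F factors. E2F factors switch on replication genes such as the Mcm helicase subunits. Genes of mitosis follow later in the cycle, and in resting cells both sets are held down by the DREAM repressor complex.

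Library totals lay between 14420494 and 21141582 counts. The epithelial genes Foxe3 and Pax6 were present in every library, at 265 to 393 CPM and 386 to 436.55 CPM in ASC and at 318 to 346 CPM and 437.11 to 483 CPM in sham. For Pax6 every ASC library lay below every sham library, by a narrow margin, as for 5.67% of all tested genes. CPM, the read count normalised to library size, was scaled by the TMM method. Markers of other cell types were detected too. The summed markers of red cells reached 73.9 to 370.1 CPM in ASC and 40.1 to 62.8 CPM in sham, and those of pigment epithelium 136 to 632 CPM in ASC and 27.4 to 204 CPM in sham. Lens fibre markers summed to 63780 to 140800 CPM in ASC and 50910 to 94639 CPM in sham, and 14 myeloid markers to 22.8 to 88.2 CPM in ASC and 12.3 to 52.5 CPM in sham. The 6 retinal markers summed to 1798 to 3404 CPM in ASC and 913 to 3784 CPM in sham, the 6 fibroblast markers to 338 to 448 CPM in ASC and 344 to 429.6 CPM in sham, and the 6 measured corneal markers to 351 to 951 CPM in ASC and 388 to 604 CPM in sham. Most of the fibroblast sum was Pdgfra (256 to 401 CPM in ASC, 314 to 377 CPM in sham), so the sum does not measure fibroblast content. Which cells Pdgfra came from was not tested. Of the same list, Col3a1 was at 0.49 to 3.24 CPM in ASC and 0.52 to 0.66 CPM in sham. Lum was at 0.13 to 2.49 CPM in ASC and 0 to 0.42 CPM in sham, and Col1a2 at 34.9 to 68.1 and 24.2 to 59.3 CPM. Most of the corneal sum was Aldh3a1 (340 to 920 CPM in ASC, 384 to 598 CPM in sham). ASC lay above sham without overlap, as for 3.39% of all tested genes, for Dcn (7.59 to 31.2, sham 0.67 to 5.81 CPM) and Col1a1 (4.02 to 5.13, sham 1.16 to 2.01 CPM). So did Krt12 (2.93 to 6.31, sham 0 to 0.98 CPM) and Krt5 (4.02 to 16.7, sham 0.45 to 1.73 CPM), while the groups overlapped for the rest of both lists. The red cell genes Hba-a1 (33.6 to 158, sham 14.8 to 29.1 CPM) and Hbb-bs (34.1 to 176, sham 21.4 to 28.4 CPM) did too. Hbb-bt, Alas2, the pigment gene Rpe65 (22.4 to 57.2, sham 2.53 to 20.3 CPM) and the fibre genes Cryga, Cryge and Birc7 did likewise. The groups overlapped for the rest of the red cell, pigment and fibre lists. At an adjusted p of 0.05 in edgeR's quasi-likelihood test, 0.631% of all tested genes rose and 0.391% fell. Of 7 lens epithelial markers 1 fell, Mab21l1, and 0 rose. Of the other lists, 2 of 13 tested fibre markers, 2 of 4 corneal and 1 of 5 fibroblast markers rose, and 0 of 5 red cell, 0 of 6 pigment, 0 of 6 retinal and 0 of 12 tested myeloid markers passed. The part of these tissues in the values below was not tested. In whole capsules, fewer cells of a type and less RNA per cell cannot be told apart.

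The comparison of ASC with sham asks whether transcripts of dividing cells differed a week after the capsule was opened. None of the 37 genes passed edgeR's quasi-likelihood test at an adjusted p of 0.05, in either direction, where 1.02% of all tested genes did. Across all genes 100 were higher and 62 lower, or 75 and 70 with scaling by library totals alone. Likewise 0 of the 37 passed with DESeq2, which called 3.74% of all tested genes, and 0 with limma-voom, which called 1.01%. At an unadjusted p of 0.05 in edgeR, 2 of the 37 (5.41%) passed, Tpx2 and Cdk6, both lower in ASC, against 14.7% of all tested genes. The median log2 fold change of the 37 was -0.03, and that of all tested genes 0.01. The smallest adjusted p was 0.271, for Tpx2.

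The 95% confidence interval of the fold change lay within a 2-fold change in both directions for 36 of the 37 genes, against 72.2% of all tested genes. Ccne1, with 20 to 48 reads per library, was the exception. Within a 1.5-fold change lay 24 of the 37, against 51.3% of all tested genes. By role, these 24 comprised 8 of the 19 mitosis genes, 8 of the 9 replication genes, 6 of the 7 G1 genes and both inhibitors. The median standard error (SE) of the log2 fold change was 0.215 for mitosis genes, 0.146 for replication genes and 0.12 for G1 genes.

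**Figure D1:**
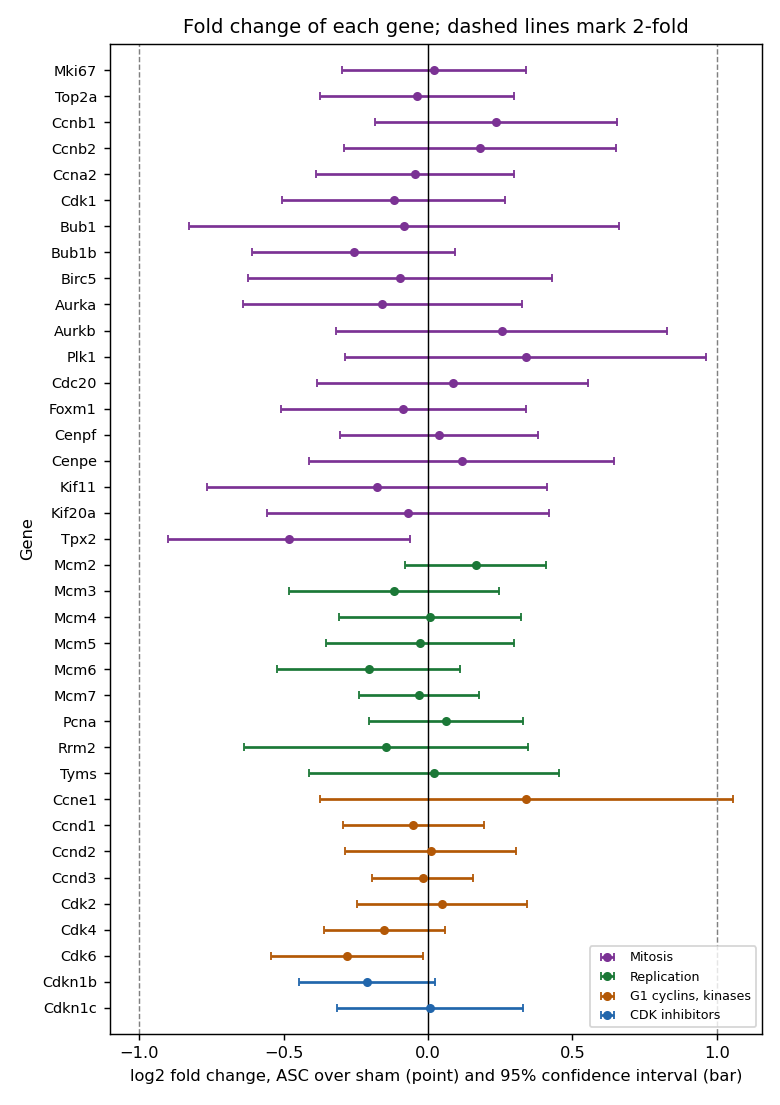
Log2 fold change of ASC over sham for each of the 37 genes (points) with its 95% confidence interval (bars), from edgeR's quasi-likelihood fit of 4 ASC and 4 sham libraries. Every interval but that of Ccne1 stays between the dashed lines at a 2-fold change, and those of Tpx2 and Cdk6 lie below 0 before adjustment for multiple tests.

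Promoters of mitosis and replication genes are known to carry different elements, so examples of each are shown. The windows below run from 250 bases before to 50 bases after the start site, are from RefSeq on build GRCm38.p6, and are written 5′ to 3′ on the strand of the gene. They are the pair of mitosis windows and the pair of replication windows with the most motif matches, where Mcm3 was taken from a tie with windows of Mcm5 and Mcm6, each with 5 matches. Capitals mark 3 motifs, each searched on both strands: the CCAAT box bound by NF-Y, the CHR element (TTTGAA or TTCGAA) bound by DREAM and by activators of mitosis genes, and the E2F site (TTTGGCGC, TTTCCCGC, TTTCGCGC or TTTGCCGC).
Top2a: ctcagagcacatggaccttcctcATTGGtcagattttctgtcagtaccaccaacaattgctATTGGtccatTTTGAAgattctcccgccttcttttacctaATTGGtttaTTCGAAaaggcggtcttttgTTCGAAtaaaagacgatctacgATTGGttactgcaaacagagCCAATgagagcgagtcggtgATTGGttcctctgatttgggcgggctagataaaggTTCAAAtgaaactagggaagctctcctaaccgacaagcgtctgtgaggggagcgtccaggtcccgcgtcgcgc
Cdk1: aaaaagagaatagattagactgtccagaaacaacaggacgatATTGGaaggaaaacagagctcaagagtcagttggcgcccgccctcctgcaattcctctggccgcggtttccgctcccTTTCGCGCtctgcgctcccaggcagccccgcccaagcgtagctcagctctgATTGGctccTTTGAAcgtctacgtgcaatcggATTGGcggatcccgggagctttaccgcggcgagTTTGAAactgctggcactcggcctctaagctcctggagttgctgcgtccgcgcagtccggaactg
Mcm7: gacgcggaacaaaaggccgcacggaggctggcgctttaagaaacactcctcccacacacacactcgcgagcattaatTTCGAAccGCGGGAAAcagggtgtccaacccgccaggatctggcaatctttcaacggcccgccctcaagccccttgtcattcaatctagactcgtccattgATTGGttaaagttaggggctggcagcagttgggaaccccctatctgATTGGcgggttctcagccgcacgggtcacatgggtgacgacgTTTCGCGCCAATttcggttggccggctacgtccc
Mcm3: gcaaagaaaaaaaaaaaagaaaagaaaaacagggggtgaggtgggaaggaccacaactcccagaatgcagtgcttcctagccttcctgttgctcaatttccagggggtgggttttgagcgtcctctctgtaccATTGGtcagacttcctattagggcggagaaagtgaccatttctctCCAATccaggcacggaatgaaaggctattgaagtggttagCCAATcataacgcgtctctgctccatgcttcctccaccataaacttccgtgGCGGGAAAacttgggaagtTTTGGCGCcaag

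The Top2a window (chr11:99024140-99024439, minus strand) held 6 CCAAT boxes, 4 CHR elements and 0 E2F sites. That of Cdk1 (chr10:69352863-69353162, minus strand) held 3 CCAAT boxes, 2 CHR elements and 1 E2F site. The Mcm7 window (chr5:138171834-138172133, minus strand) held 3 CCAAT boxes, 1 CHR element and 2 E2F sites, and the last of its CCAAT boxes shares letters with an E2F site. The Mcm3 window (chr1:20820263-20820562, minus strand) held 3 CCAAT boxes, 0 CHR elements and 2 E2F sites. Windows were found for 28 of the 37 genes, 30 windows in all, in which 3 pairs of matches overlapped.

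A CHR element was present in 11 of 14 mitosis windows (78.6%) and in 2 of 9 replication windows (22.2%), against 19.2% of all 32851 promoter windows. An E2F site was present in 1 of the 14 mitosis windows (7.14%) and 4 of the 9 replication windows (44.4%), against 2.26% of all windows. CCAAT boxes were common to both, in 13 of 14 (92.9%) and 8 of 9 (88.9%), against 37.4% of all windows. The G1 windows held CHR elements in 0 of 6, a CCAAT box in 2 of 6 (33.3%) and an E2F site in 1 of 6 (16.7%). Among 40 windows of other mitosis genes that were not among the 37, 80.0% held a CHR element, 7.5% an E2F site and 70.0% a CCAAT box. Among 46 windows of other replication genes the shares with a CHR element and an E2F site were 17.4% and 34.8%, and 23 held a CCAAT box. A match describes these letters and was not measured as a binding site.

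Mitosis genes were counted at 22 to 733 reads per gene and library. Mki67, the proliferation marker Ki-67 that coats mitotic chromosomes, was at 34.9, 25.4, 22.7 and 31.2 CPM in ASC 1 to 4 and at 24.5, 34.1, 27.4 and 26.3 CPM in sham 1 to 4. Top2a, the topoisomerase that untangles sister chromatids, was at 33.1, 23.4, 25.7 and 24.2 CPM in ASC and at 21.2, 34.2, 26.2 and 27.7 CPM in sham. The groups overlapped for both, with ASC 1 and sham 2 at the top. Their log2 fold changes were 0.02 (interval -0.30 to 0.34, adjusted p = 0.966 in edgeR) and -0.04 (interval -0.37 to 0.30, adjusted p = 0.941). With library totals in place of TMM the value of Mki67 was -0.11.

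The cyclins and the kinase that start mitosis were likewise close between groups. Ccnb1, a B-type cyclin that activates Cdk1, averaged 4.70 ± 0.53 CPM in ASC and 3.98 ± 0.43 CPM in sham (SD, n = 4 each; log2 fold change 0.23, SE 0.19). Ccnb2, the other B-type cyclin, averaged 3.62 ± 0.59 CPM in ASC and 3.20 ± 0.28 CPM in sham. Ccna2, the cyclin of S and G2 phases, averaged 8.88 ± 1.09 CPM in ASC and 9.15 ± 1.35 CPM in sham. Cdk1 itself averaged 6.69 ± 0.43 CPM in ASC and 7.28 ± 1.40 CPM in sham. Foxm1, the transcription factor that activates late cell cycle genes, had 5.54 ± 0.999 CPM in ASC and 5.87 ± 0.79 CPM in sham. Adjusted p-values of these 5 in edgeR were at least 0.621, and the groups overlapped for all 5.

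Tpx2 stood lowest of the mitosis genes relative to sham. It encodes a spindle assembly factor that activates the kinase Aurora A. Its level was 6.50, 5.48, 5.38 and 6.68 CPM in ASC and 8.005, 11.4, 7.31 and 6.77 CPM in sham. Every ASC library lay below every sham library, by a narrow margin between ASC 4 and sham 4. Of the 37 genes this was the only one without overlap, against 9.06% of all tested genes (5.67% with ASC lower and 3.39% with ASC higher). The log2 fold change was -0.48 (SE 0.19, interval -0.90 to -0.06, unadjusted p = 0.0273, adjusted p = 0.271 in edgeR). Without sham 2 it was -0.30, and over all 18 alternatives -0.61 to -0.30, with an adjusted p of 0.192 or more. Aurka, the gene of Aurora A, was at 5.55, 4.72, 4.69 and 4.79 CPM in ASC and 5.90, 7.52, 3.87 and 4.69 CPM in sham, with overlap between the groups (log2 fold change -0.16, SE 0.22). Whether Tpx2 and Aurka differ in their change was not tested.

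Genes of the chromosomal passenger complex, the spindle checkpoint and mitotic exit followed. Aurkb, the kinase of the passenger complex, averaged 3.63 ± 0.75 CPM in ASC and 3.04 ± 0.77 CPM in sham, and its partner Birc5 (survivin) 3.93 ± 0.83 CPM in ASC and 4.19 ± 1.04 CPM in sham. Bub1, a checkpoint kinase, was at 4.78, 1.52, 2.08 and 2.90 CPM in ASC and at 2.20, 3.46, 2.86 and 3.42 CPM in sham. ASC 1 had the highest and ASC 2 the lowest Bub1 level of all 8 libraries. Bub1b, the related checkpoint protein BubR1, averaged 6.69 ± 1.11 CPM in ASC and 7.99 ± 0.55 CPM in sham (log2 fold change -0.26, interval -0.61 to 0.09). Cdc20, which activates the anaphase-promoting complex once the checkpoint is satisfied, averaged 4.96 ± 0.66 CPM in ASC and 4.66 ± 1.14 CPM in sham. Plk1, a kinase that acts from mitotic entry to cytokinesis, had the highest fold change of the 19, 0.34 on the log2 scale with an interval of -0.29 to 0.96. It was at 3.19, 2.88, 2.31 and 4.52 CPM in ASC and at 3.18, 2.52, 2.76 and 1.64 CPM in sham, where ASC 4 was high and sham 4 low.

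Motor and kinetochore genes completed the mitosis group. Kif11, the kinesin that pushes spindle poles apart, was at 10.8, 6.08, 5.26 and 7.22 CPM in ASC and at 6.18, 12.4, 7.27 and 7.22 CPM in sham. ASC 1 and sham 2 again stood above the rest. Kif20a, a kinesin of cytokinesis, averaged 4.48 ± 0.96 CPM in ASC and 4.70 ± 0.91 CPM in sham. Cenpe, a kinetochore motor, averaged 4.60 ± 0.92 CPM in ASC and 4.24 ± 1.21 CPM in sham, and the kinetochore protein Cenpf 10.3 ± 1.13 CPM in ASC and 9.99 ± 1.72 CPM in sham. The log2 fold changes of these 4 lay between -0.18 and 0.12.

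Summed over the 19 mitosis genes, the level was 171, 131, 134 and 154 CPM in ASC 1 to 4 and 131, 186, 145 and 144 CPM in sham 1 to 4. The highest library was sham 2 and the ranges overlapped. The mean difference, ASC minus sham, was -3.86 CPM. It was -17.9 CPM with library totals, and ran from -11.6 CPM without ASC 1 to 7.65 CPM without sham 2 on leaving out 1 library (-10.6 CPM without sham 1, -6.17 CPM without ASC 4, -6.09 CPM without sham 3, -6.42 CPM without sham 4, 1.77 CPM without ASC 2 and 0.618 CPM without ASC 3). The sums rested on 1930 to 3980 reads per library. The median coefficient of variation of a mitosis gene was 16.7% in ASC and 19.7% in sham, against a median counting error of 10.3%.

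**Figure D2:**
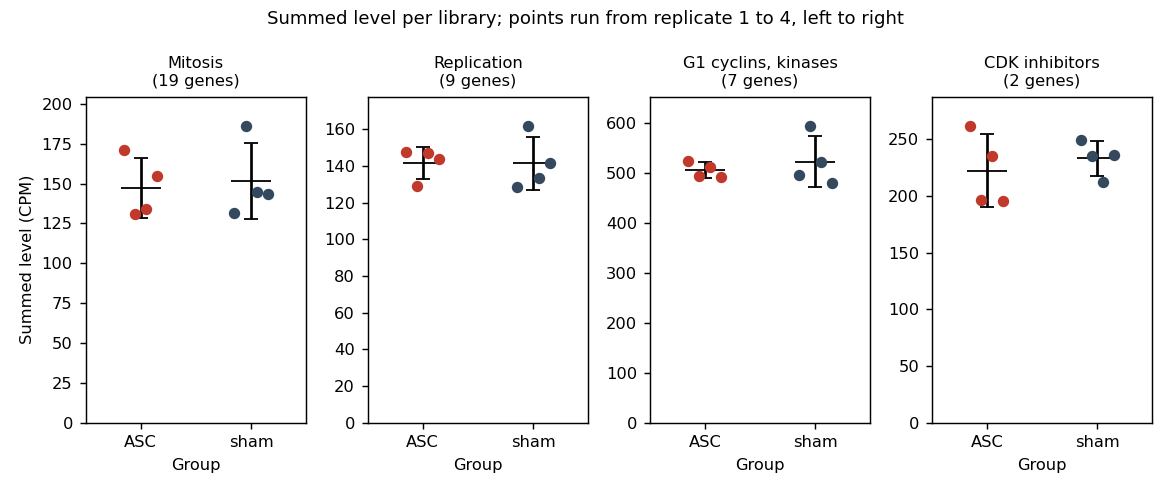
Summed level in CPM per library of the mitosis, replication, G1 and inhibitor genes, with points for single libraries and a bar at the mean ± SD of 4. The groups overlap in every panel, and sham 2 is the highest library for the mitosis, replication and G1 sums.

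Sham 2 stood at the top for many of the genes. It had the highest level of all 8 libraries for 10 of the 19 mitosis genes (52.6%) and 4 of the 9 replication genes (44.4%), against 13.4% of all tested genes. Relative to the mean of the other 3 sham libraries it was higher for 17 of 19 mitosis genes, with a median log2 difference of 0.39, and for 8 of 9 replication genes, with a median of 0.20. The median over all tested genes was 0.01. Birc5, Aurka, Cdc20, Cenpe, Kif11, Tpx2, Mcm6, Rrm2 and Ccnd2 were among the genes at their highest in sham 2. Other mitosis genes outside the 37 leaned the same way, 36 of 46 being above the other sham libraries, with a median of 0.19. Of these 46, sham 2 was the highest of all 8 libraries for 13 (28.3%) and ASC 1 for 14 (30.4%). The shares of all tested genes were 13.4% and 14.5%. Other replication genes outside the 37 were closer to all tested genes, 28 of 47 being above the other sham libraries, with a median of 0.056. Sham 2 was also the highest sham library for the summed markers of lens epithelium (10379 CPM, against 8333 to 9825 CPM in the other 3), cornea, fibroblasts, myeloid cells and red cells. The lead was small for myeloid cells (52.5 CPM, 49.9 CPM in sham 3) and red cells (62.8 CPM, 60.9 CPM in sham 1). It was not the highest for lens fibre (54044 CPM, sham range 50910 to 94639 CPM), pigment epithelium (88.7 CPM, 27.4 to 204 CPM) or retina (984 CPM, 913 to 3784 CPM). Most of the lens epithelium sum was Col4a1 (6154 to 8125 CPM in sham), of the corneal sum Aldh3a1 and of the fibroblast sum Pdgfra. Over the sham libraries Foxe3 ran from 318 to 346 CPM, Six3 from 92.2 to 99.2 CPM and Cdh1 from 153 to 222 CPM. The part of any of these cell types in the levels of sham 2 was not tested.

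Among ASC libraries, ASC 1 exceeded the mean of the other 3 for 15 of 19 mitosis genes (median log2 difference 0.16) and for 6 of 9 replication genes (median 0.075). ASC 2 was below the mean of the others for all but 1 of the 19 mitosis genes (median -0.22, against -0.005 over all tested genes), and held the lowest level of all 8 libraries for 4 mitosis and 4 replication genes. Of all 15857 tested genes, ASC 2 was lowest for 2065. ASC 1 also had the highest lens fibre sum of all libraries and ASC 2 the lowest of the ASC libraries. The part of fibre content in these levels was not tested.

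**Figure D3:**
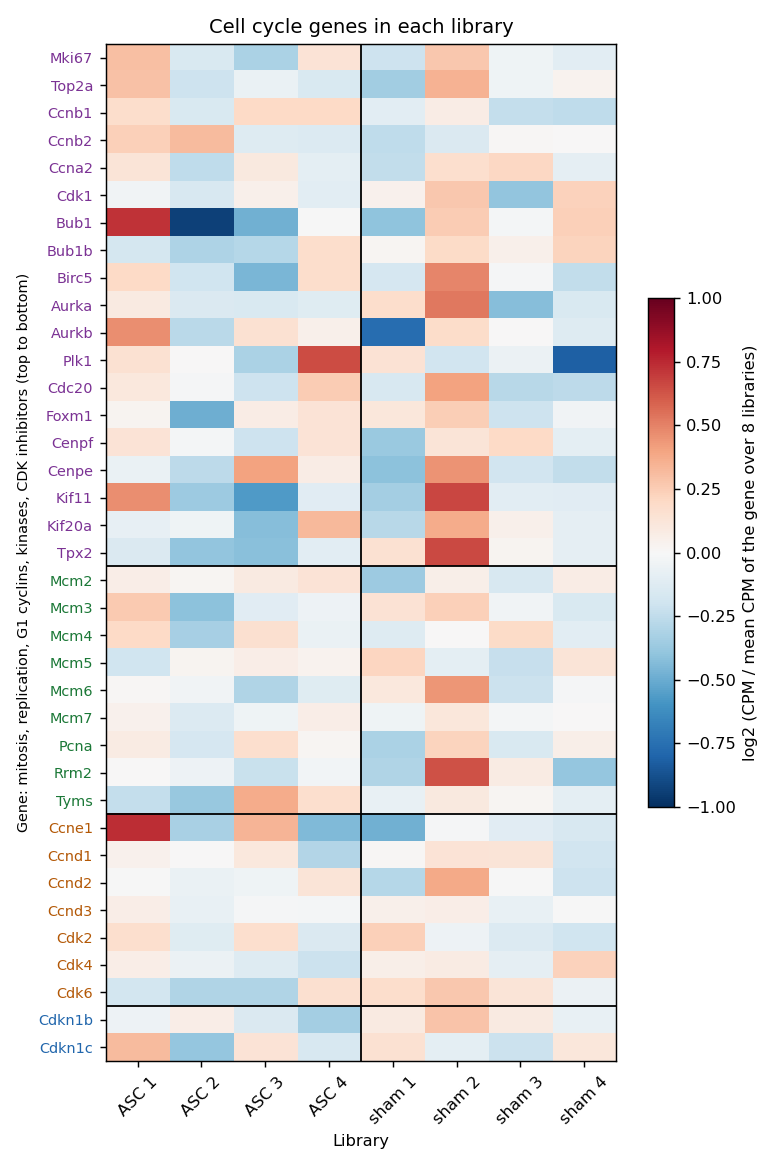
Level of each gene in each library, as log2 of its CPM over its own mean CPM in the 8 libraries (red above, blue below the mean). Genes run down by role, separated by black lines, and the vertical line separates ASC from sham libraries. Sham 2 is red for most mitosis genes and ASC 2 mostly blue, while no role changes colour between the groups.

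The median coefficient of variation of a replication gene was 9.25% in ASC and 13.9% in sham, against a median counting error of 6.68%. Pcna, the sliding clamp of DNA polymerase, was at 44.8, 37.7, 47.5 and 42.8 CPM in ASC and at 34.0, 49.5, 38.2 and 44.1 CPM in sham (log2 fold change 0.06, interval -0.21 to 0.33, adjusted p = 0.864 in edgeR). The value was -0.07 with library totals. The ASC range lay inside the sham range.

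The Mcm2 to Mcm7 genes encode the 6 subunits of the replicative helicase, which is loaded on DNA in G1. Mcm2 was at 22.7, 21.99, 23.1 and 23.9 CPM in ASC and at 16.9, 22.6, 19.5 and 22.8 CPM in sham, with the largest positive fold change of the 9 replication genes (0.17, interval -0.08 to 0.41). Mcm7 averaged 20.2 ± 1.25 CPM in ASC and 20.6 ± 1.02 CPM in sham, with the narrowest interval of the replication genes, -0.24 to 0.18. Mcm6 had the largest negative value. It was at 14.8, 14.3, 11.9 and 13.4 CPM in ASC and at 15.7, 19.8, 12.6 and 14.5 CPM in sham (log2 fold change -0.21, interval -0.52 to 0.11), and sham 2 was its highest library. Mcm3, Mcm4 and Mcm5 averaged 8.73 ± 1.67, 12.6 ± 2.04 and 8.61 ± 0.69 CPM in ASC, against 9.44 ± 1.13, 12.5 ± 1.31 and 8.78 ± 1.23 CPM in sham. The fold changes of these 6 subunits had both signs, and none passed the test.

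Rrm2 and Tyms supply deoxynucleotides. Rrm2, the regulated subunit of ribonucleotide reductase, was at 6.44, 6.19, 5.50 and 6.28 CPM in ASC and at 5.20, 9.99, 6.78 and 4.91 CPM in sham. All ASC libraries lay within the sham range, which sham 2 widened (log2 fold change -0.14, SE 0.23, and 0.10 without sham 2). Tyms, thymidylate synthase, averaged 5.77 ± 1.39 CPM in ASC and 5.68 ± 0.35 CPM in sham. The replication sum was 147, 129, 147 and 144 CPM in ASC and 129, 162, 134 and 141 CPM in sham. The mean difference, ASC minus sham, was 0.408 CPM, or -12.3 CPM with library totals. On leaving out 1 library the difference was -3.83 CPM without sham 1, 7.16 CPM without sham 2, -2.17 CPM without sham 3 and 0.479 CPM without sham 4. It was -1.51 CPM without ASC 1, 4.72 CPM without ASC 2, -1.29 CPM without ASC 3 and -0.284 CPM without ASC 4. Mitosis and replication sums stood in a ratio of 1.16, 1.01, 0.913 and 1.07 in ASC 1 to 4 and of 1.02, 1.15, 1.08 and 1.02 in sham 1 to 4.

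The G1 genes included those with the most reads, up to 4760 in a library. Ccnd1, cyclin D1, was at 161, 157, 167 and 127 CPM in ASC and at 157, 171, 170.3 and 136 CPM in sham (log2 fold change -0.05, interval -0.30 to 0.19). Replicate 4 was the lowest in both groups. Ccnd2, cyclin D2, was at 170.0, 163, 166 and 186 CPM in ASC and at 140.3, 222, 171 and 148 CPM in sham (log2 fold change 0.01, interval -0.29 to 0.31, and -0.12 with library totals). Its 4 ASC libraries lay inside the sham range. Ccnd3, cyclin D3, averaged 76.5 ± 3.21 CPM in ASC and 77.5 ± 3.45 CPM in sham, and its interval of -0.19 to 0.16 was the narrowest of all 37 genes.

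Of the partner kinases, Cdk6 had the lowest value. It was at 26.0, 23.9, 24.0 and 32.9 CPM in ASC and at 33.4, 35.5, 32.3 and 28.4 CPM in sham. ASC 1, ASC 2 and ASC 3 lay below all sham libraries, while ASC 4 lay within their range. The log2 fold change was -0.28 (SE 0.12, interval -0.54 to -0.02, unadjusted p = 0.0375, adjusted p = 0.305 in edgeR). Over the 18 alternatives it was -0.41 to -0.23 with an adjusted p of 0.13 or more. Cdk4, which shares the D-type cyclins with Cdk6, was at 68.7, 63.0, 59.9 and 56.4 CPM in ASC and at 68.0, 69.2, 61.7 and 76.8 CPM in sham (log2 fold change -0.15, interval -0.36 to 0.06). Cdk2, the partner of cyclins E and A, averaged 14.4 ± 1.73 CPM in ASC and 13.9 ± 1.95 CPM in sham. Ccne1, cyclin E1, had the lowest read counts of the 37 and was at 3.06, 1.47, 2.31 and 1.35 CPM in ASC and 1.31, 1.82, 1.70 and 1.64 CPM in sham. Its log2 fold change of 0.34 (interval -0.38 to 1.05) was 0.08 without ASC 1.

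The inhibitors of cyclin-dependent kinases had 924 to 3531 reads per gene and library. Cdkn1c, p57, which lens cells use to leave the cycle as they become fibres, was at 185, 114, 164 and 134 CPM in ASC and at 165, 139, 129 and 161 CPM in sham. ASC libraries held both its highest and its lowest level (log2 fold change 0.01, interval -0.32 to 0.33, and -0.13 with library totals). Cdkn1b, p27, an inhibitor kept high in resting cells, was at 76.3, 83.0, 71.6 and 62.4 CPM in ASC and at 84.4, 96.2, 84.0 and 74.9 CPM in sham. ASC 3 and ASC 4 lay below all sham libraries, while ASC 1 and ASC 2 lay within their range. The log2 fold change was -0.21 (SE 0.11, interval -0.45 to 0.02, unadjusted p = 0.0757, adjusted p = 0.398 in edgeR).

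Levels of different genes can be compared only per length, here as CPM per kilobase of exon. The length is the union of all annotated exons of a gene. It can exceed that of the transcripts present, so the order of genes is approximate. In sham, Cdkn1c led with 72.9 ± 8.62 and Ccnd1 followed with 33.7 ± 3.45 CPM per kilobase, each above the next gene in every sham library. In ASC they had 73.2 ± 15.5 and 32.5 ± 3.75. Cdk4 (19.1 ± 1.6 in ASC, 21.2 ± 1.91 in sham), Cdkn1b (16.1 ± 1.91 and 18.6 ± 1.91), Ccnd2 (18.2 ± 1.11 and 18.1 ± 3.94) and Pcna (18 ± 1.73 and 17.3 ± 2.82) came next, and their sham ranges overlapped. Ccnd3 (8.72 ± 0.365 in ASC, 8.83 ± 0.393 in sham) and Mcm7 (4.56 ± 0.282 and 4.66 ± 0.23) stood apart from their neighbours. Below these, Mcm4, Mcm6, Top2a and Mcm2 had overlapping sham ranges, with means of 2.94 to 3.47 CPM per kilobase. Of the mitosis genes Top2a had the highest mean, with 2.95 ± 0.493 in ASC and 3.03 ± 0.598 in sham, but its sham range (2.35 to 3.8) overlapped that of Mki67 (2.43 to 3.39). Cenpe was last of all, with 0.534 ± 0.106 and 0.491 ± 0.141.

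**Figure D4:**
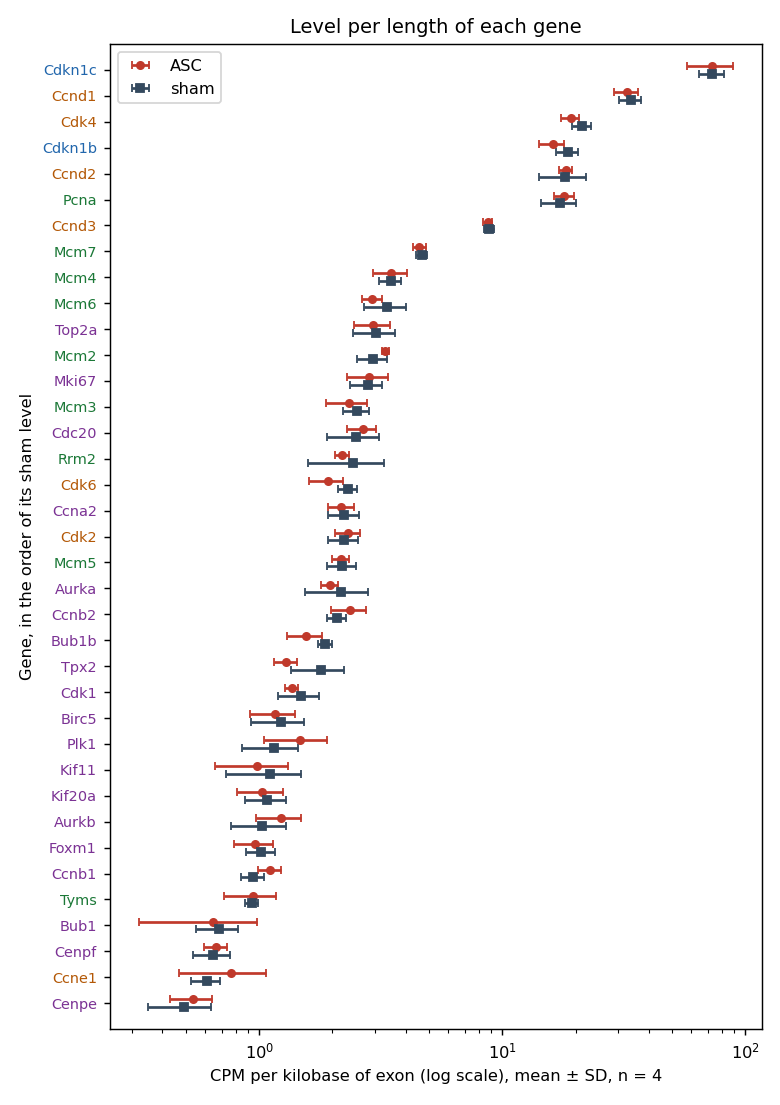
Level of each gene in CPM per kilobase of exon on a log axis, as mean ± SD of 4 ASC (circles) and 4 sham (squares) libraries, with gene names coloured by role as in the plot of fold changes. Inhibitors, D-type cyclins, Cdk4 and Pcna lie at the top and mitosis genes fill most of the lower part, in the same way in both groups.

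Other genes of the pathway were read from 3 lists. Of 46 other mitosis genes 0 passed edgeR's test, against 1.02% of all tested genes, and their median log2 fold change was -0.04. An unadjusted p under 0.05 in edgeR was reached by 3 (6.52%, against 14.7% of all tested genes). DESeq2 called 1, where it called 3.74% of all tested genes, and limma-voom 0, where it called 1.01%. Those with the highest mean CPM were Ube2s, Racgap1 and Smc4. Ube2s, a ubiquitin-conjugating enzyme of the anaphase-promoting complex, was at 71.2, 45.1, 52.9 and 57.5 CPM in ASC and at 43.2, 42.0, 37.3 and 40.4 CPM in sham. The groups did not overlap, with a log2 fold change of 0.48 (SE 0.13, adjusted p = 0.102 in edgeR). It was the gene that DESeq2 called (adjusted p = 0.0368), and it passed edgeR without ASC 2 (adjusted p = 0.0348) and without the low-count filter (adjusted p = 0.00494). Racgap1, a regulator of cytokinesis, averaged 16.0 ± 1.55 CPM in ASC and 17.9 ± 1.86 CPM in sham. Smc4, a condensin subunit that compacts mitotic chromosomes, averaged 15.5 ± 0.72 CPM in ASC and 19.0 ± 2.13 CPM in sham (log2 fold change -0.30, adjusted p = 0.247).

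Among 47 other replication genes 1 fell and 0 rose, against 0.391% and 0.631% of all tested genes, with a median log2 fold change of -0.03. An unadjusted p under 0.05 in edgeR was reached by 7 (14.9%, against 14.7% of all tested genes). DESeq2 and limma-voom each called 1, where they called 3.74% and 1.01% of all tested genes. The gene was Cdca7, a chromatin protein that helps recruit the remodeller Hells and that MYC and E2F factors induce. Cdca7 fell to 14.03, 15.04, 15.04 and 13.8 CPM in ASC, against 22.2, 22.2, 21.6 and 20.8 CPM in sham. The libraries of each group were close together and the groups far apart. The log2 fold change was -0.58 (SE 0.09, interval -0.79 to -0.38, adjusted p = 0.0136 in edgeR), and -0.71 to -0.57 over all 18 alternatives. The call held in 17 of them and was lost by a little without sham 2 (adjusted p = 0.0504).

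Of 35 other G1 regulators 0 passed edgeR's test, against 1.02% of all tested genes. Their median log2 fold change was -0.07, against 0.008 for all tested genes. An unadjusted p under 0.05 was reached by 7 (20.0%, against 14.7% of all tested genes). DESeq2 called 3, where it called 3.74% of all tested genes, and limma-voom 1, where it called 1.01%. Those with the highest mean CPM were Ccng1, Tfdp2 and Mycn. Mycn, a MYC family factor that drives division of progenitor cells, was at 29.5, 42.6, 29.4 and 25.4 CPM in ASC and at 59.3, 48.3, 46.2 and 40.3 CPM in sham (log2 fold change -0.61, SE 0.17, adjusted p = 0.117 in edgeR). Of the ASC libraries, ASC 2 alone reached the sham range. DESeq2 called Mycn (adjusted p = 0.0242), and edgeR did without ASC 2 (adjusted p = 0.0119) and without the low-count filter (adjusted p = 2.01e-05). Ccng1, a cyclin that p53 induces, was at 394, 134, 274 and 219 CPM in ASC and at 134, 128, 137 and 178 CPM in sham, with 3 of the 4 ASC libraries above all sham libraries (log2 fold change 0.83, SE 0.30, adjusted p = 0.263). It passed DESeq2 (adjusted p = 0.0279), and edgeR without ASC 2 (adjusted p = 0.0323). Tfdp2, a partner of E2F factors, averaged 65.3 ± 4.61 CPM in ASC and 51.4 ± 10.7 CPM in sham (adjusted p = 0.257).

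Skp2 was chosen after its values were seen. It encodes the ubiquitin ligase subunit that marks p27 for degradation. Its level was 5.93, 5.65, 5.73 and 5.94 CPM in ASC and 8.47, 8.97, 9.30 and 8.41 CPM in sham. The groups did not overlap, with a log2 fold change of -0.60 (SE 0.14, interval -0.90 to -0.29). It missed edgeR's threshold (adjusted p = 0.0671) and passed those of DESeq2 (adjusted p = 0.0135) and limma-voom (adjusted p = 0.0486). Over the 18 alternatives the value was -0.73 to -0.57.

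The p53 target Cdkn1a, the inhibitor p21, was at 2.93, 10.9, 3.70 and 5.26 CPM in ASC and at 1.87, 3.596, 2.32 and 2.01 CPM in sham. ASC 2 was the highest library, and ASC 1 lay within the sham range (log2 fold change 1.21, SE 0.41, adjusted p = 0.206 in edgeR). Without ASC 2 the value was 0.68 (adjusted p = 0.384), and Cdkn1a passed the threshold in edgeR without the low-count filter (adjusted p = 0.00064). Myc averaged 2.25 ± 0.88 CPM in ASC and 1.80 ± 0.52 CPM in sham (log2 fold change 0.32, adjusted p = 0.744).

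**Figure D5:**
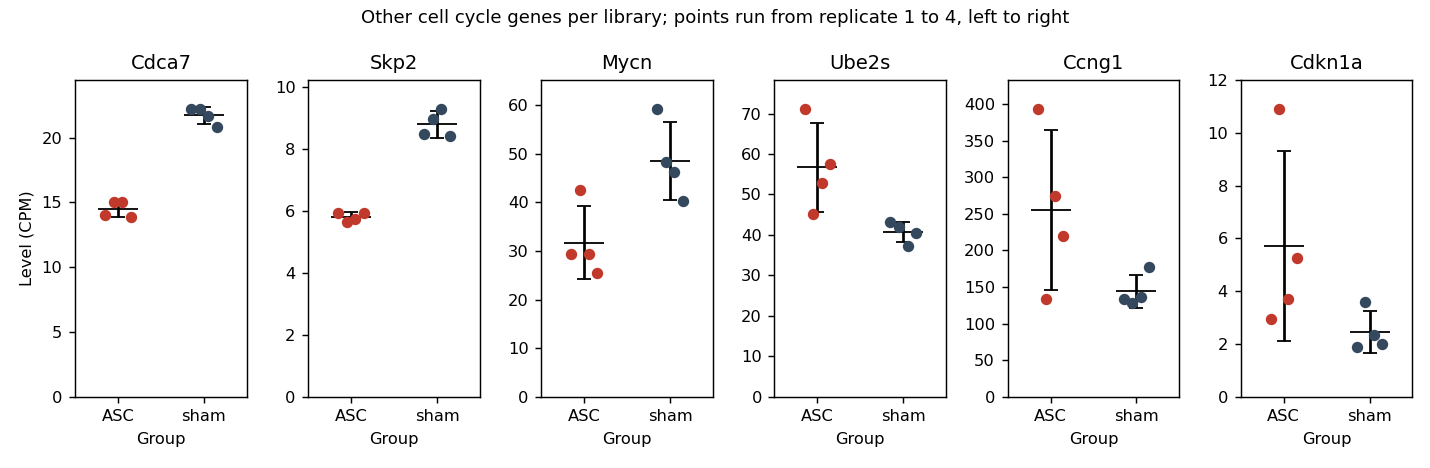
Level in CPM per library of Cdca7, Skp2, Mycn, Ube2s, Ccng1 and Cdkn1a, with points for single libraries and a bar at the mean ± SD of 4. Cdca7 and Skp2 show tight, separate groups with ASC below sham, and Ccng1 and Cdkn1a show wide spread among ASC libraries. Cdca7 passed edgeR's test with the low-count filter and all 8 libraries, and the other genes shown did not.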

How the data were processed

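Lens capsule RNA was sequenced after poly-A selection, per the labels' protocols. The authors deposited 1 table of raw read counts per gene, made with CASAVA, fastp, HISAT2 2.0.5 and featureCounts 1.5.0-p3 per the submitters' processing notes. The genome build, the annotation, the use of strand and the treatment of multi-mapped reads were not given in the sources used here. Library totals were 14638645 to 19067642 counts in ASC and 14420494 to 21141582 in sham.

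Counts of all genes were filtered by filterByExpr, scaled by TMM and tested with edgeR 4.0.16 (quasi-likelihood F test, robust estimation, 4 ASC against 4 sham), with Benjamini-Hochberg adjustment over 15857 genes and a threshold of 0.05. The SE is the absolute log2 fold change over the square root of F. The code was tested on simulated data. DESeq2 1.42.0, limma-voom (limma 3.58.1), other scalings and filters, a replicate block and leaving out each library were the alternatives, 18 in all for each gene. Levels per length used the GENCODE M21 exon union. P-values set each group difference against the spread between these libraries, estimated with the help of all genes. How far this reflects the spread between mice is not known, since the number of mice per library is not stated. The labels call the replicates biological.

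The members and lists were chosen with earlier results of these data known. Named beyond the 37 genes are the called genes of the other lists, the 3 genes with the highest mean CPM of the mitosis and G1 lists, Cdkn1a and Myc. Skp2 was added after its values were seen.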

Additional observations from a re-analysis of the deposited data

Results flagged for a closer look

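In 5 of 102 groups of 4 libraries tested, 1 library stood far from the other 3 of its group, relative to the group's range. Chance flags about 1 in 20 groups. Ccnb1 was at 3.91 CPM in ASC 2, below 4.91 to 4.99 CPM in the other ASC libraries. Aurka was at 5.55 CPM in ASC 1, above 4.69 to 4.79 CPM in the others. Mcm5 was at 7.59 CPM in ASC 1, below 8.85 to 9.08 CPM. Cdc20 was at 6.35 CPM in sham 2, above 3.97 to 4.31 CPM in the other sham libraries. Smc4 was at 15.9 CPM in sham 1, below 19.8 to 20.5 CPM.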

How the results depend on the processing

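None of the 37 genes passed the threshold under any of the 18 alternatives, the smallest adjusted p being 0.13, for Cdk6 without ASC 4. The count of genes called among all tested was 593 with DESeq2, 712 without a low-count filter, 44 at an adjusted p of 0.01, and 56 to 228 on leaving out 1 library. It was 101 without ASC 1, 72 without ASC 3, 67 without ASC 4, 79 without sham 1, 56 without sham 2 and 67 without sham 4. Over the 3 lists of other cell cycle genes it was 1 with all libraries, 5 with DESeq2, 2 with limma-voom, 4 without a filter, and 0 to 4 on leaving out 1 library, with 0 without sham 2 and 4 without ASC 2. The cause was not tested.

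Scaling by library totals gave all genes a median of -0.116 on the log2 scale, against 0.008 with TMM, and a difference of the replication sum of -12.3 CPM. It reversed Mki67 (-0.11), Cdc20 (-0.041), Cenpf (-0.10), Cenpe (-0.025), Mcm4 (-0.14), Pcna (-0.07), Tyms (-0.11), Ccnd2 (-0.12), Cdk2 (-0.085) and Cdkn1c (-0.13). Upper-quartile scaling reversed Mcm4 (-0.011), Ccnd2 (-0.0066) and Cdkn1c (-0.016). Limma-voom reversed Mki67 (-0.08), Cenpf (-0.008), Ccna2 (0.00016) and Mcm5 (0.0019). Without a filter Mcm4 (-0.0054), Ccnd2 (-0.0048) and Cdkn1c (-0.0056) reversed, and without crystallins Cdkn1c (-8.5e-05).

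On leaving out 1 library, values that changed sign ranged from -0.091 to 0.122 for Mki67, -0.16 to 0.084 for Top2a, -0.128 to 0.023 for Ccna2, -0.463 to 0.124 for Bub1, -0.191 to 0.082 for Birc5, -0.297 to 0.026 for Aurka, -0.162 to 0.036 for Foxm1, -0.066 to 0.119 for Cenpf, -0.022 to 0.33 for Cenpe, -0.423 to 0.083 for Kif11 and -0.212 to 0.057 for Kif20a. They ranged from -0.062 to 0.103 for Mcm4, -0.102 to 0.046 for Mcm5, -0.062 to 0.0041 for Mcm7, -0.025 to 0.152 for Pcna, -0.265 to 0.104 for Rrm2, -0.125 to 0.128 for Tyms, -0.118 to 0.024 for Ccnd1, -0.074 to 0.157 for Ccnd2, -0.048 to 0.00046 for Ccnd3, -0.0042 to 0.148 for Cdk2 and -0.116 to 0.113 for Cdkn1c. Of the 37 genes 14 kept their sign in all 18 alternatives and 23 did not.

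Deviations from the group mean correlated weakly between same-numbered libraries (r = 0.217, 0.057, 0.214 and -0.09). Between libraries of different number r ran from -0.461 to 0.3. Such correlations cannot show whether the numbers pair the libraries. With a replicate block 169 genes were called, 0 of them members, and Tyms (-0.0067) and Cdkn1c (-0.011) reversed. Mitosis genes had as few as 22 reads in a library, and their median spread between libraries (16.7% in ASC, 19.7% in sham) exceeded the median counting error of 10.3%.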
